A study of Mus musculus with 6 samples.

Results

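A set of 10 genes of antigen presentation on MHC class I was followed in a mouse glioblastoma stem cell line with and without knockdown of Ggct. They are B2m, the heavy chain genes H2-K1, H2-D1 and H2-M3, the peptide loading genes Tap1, Tap2 and Tapbp, and the immunoproteasome genes Psmb8, Psmb9 and Psmb10. Every non-control probe whose RefSeq transcript belongs to 1 of these 10 genes was taken, which gave 14 of the 56593 probes analysed and 10 of the 22907 genes named on the array. H2-K1, Tap1, Tap2 and Tapbp have 2 probes each and the other members 1. Total RNA had been hybridised to 6 one-colour Agilent arrays, 3 from cells transduced with lentivirus carrying a non-target hairpin (control) and 3 from cells with a lentiviral hairpin against Ggct (knockdown). Both groups came from 1 line, which had been set up by the neurosphere method from mouse glioblastomas induced with the SB transposon and was kept without serum, with EGF and bFGF. The knockdown titles name 1 hairpin, mGGCTsh3, so an effect of that hairpin apart from loss of Ggct cannot be told apart, and the strain and H2 haplotype of the line are not given in the sources used here. The titles open with a date, and each of the 3 dates is shared by 1 control and 1 knockdown array, which pairs them.

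Class I molecules show peptides from inside the cell to cytotoxic T cells. Proteasomes cut proteins into peptides, the TAP transporter made of Tap1 and Tap2 carries them into the endoplasmic reticulum, tapasin (Tapbp) holds the transporter and the empty class I molecule together, and a heavy chain joined to beta2-microglobulin (B2m) brings the peptide to the surface. In the immunoproteasome the catalytic subunits Psmb8, Psmb9 and Psmb10 replace Psmb5, Psmb6 and Psmb7. Interferons induce most of these genes, and in the nervous system their basal expression is low.

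The start of the class I genes carries known control elements, so the upstream sequence of 4 members is shown before their values. The stretches below are from RefSeq promoter windows of mouse build GRCm38.p6, written 5′ to 3′ on the strand of the gene, with motif matches in capitals. They cover chr17:34000349-34000468 (minus strand) for H2-K1, chr17:35262913-35263055 (plus strand) for H2-D1, chr17:37270015-37270227 (plus strand) for H2-M3 and chr2:122147538-122147648 (plus strand) for B2m.
H2-K1: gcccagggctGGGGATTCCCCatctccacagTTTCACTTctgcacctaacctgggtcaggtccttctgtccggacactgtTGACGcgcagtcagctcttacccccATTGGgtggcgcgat
H2-D1: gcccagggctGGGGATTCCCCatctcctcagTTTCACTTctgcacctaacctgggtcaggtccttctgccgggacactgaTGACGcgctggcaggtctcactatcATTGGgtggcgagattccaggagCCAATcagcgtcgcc
H2-M3: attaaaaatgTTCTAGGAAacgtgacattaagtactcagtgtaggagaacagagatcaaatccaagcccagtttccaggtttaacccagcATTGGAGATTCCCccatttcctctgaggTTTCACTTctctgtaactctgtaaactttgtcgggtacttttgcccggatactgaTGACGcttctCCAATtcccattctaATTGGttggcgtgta
B2m: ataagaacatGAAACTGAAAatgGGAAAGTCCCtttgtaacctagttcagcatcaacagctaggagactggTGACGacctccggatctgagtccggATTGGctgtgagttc
All 4 stretches hold an NF-kB consensus match, an IRF core (AANNGAAA), a CRE core (TGACG) and at least 1 CCAAT box, in capitals as CCAAT or, on the other strand, as ATTGG. B2m alone of the 9 members with a window has the longer ISRE, a GAAA repeated after 2 bases, which contains its IRF core, and H2-M3 also has a GAS match (TTCNNNGAA). Over their first 120 bases the H2-K1 and H2-D1 stretches are identical at 108 positions, or 90%.

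Motifs were searched on both strands of each window, from 250 bases before to 50 after the start site. Of the 32851 windows in the table, 4.51% hold the NF-kB consensus, 23.9% the IRF core, 3.44% the ISRE, 8.3% the GAS match, 20.8% the CRE core and 37.4% the CCAAT box. Among the 9 members with a window, 4 hold NF-kB, 4 the IRF core, 6 the CRE core, 7 the CCAAT box and 2 the GAS match. In H2-K1, H2-D1, H2-M3 and B2m exactly 20 bases lie between the CRE core and the ATTGG that follows it on the strand of the gene. That arrangement, looked for after the sequences had been seen, occurs upstream of the start in 18 of the windows, or 0.0548%, which belong to 15 genes. In class I promoters such a pair is known as the X2 and Y boxes, bound by CREB and NF-Y factors together with RFX and the coactivator NLRC5.

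Tap1 and Psmb9 lie head to head with 225 bases between their start sites, and their windows are the same DNA read on opposite strands over 275 bases. The stretch printed below, chr17:34187324-34187484 on the plus strand in GRCm38.p6, is given because it spans the motif matches that both windows share and most of the DNA between the start sites.
Tap1: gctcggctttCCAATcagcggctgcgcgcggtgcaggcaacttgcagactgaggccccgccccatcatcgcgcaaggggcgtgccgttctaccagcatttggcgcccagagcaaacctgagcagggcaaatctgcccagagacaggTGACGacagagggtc
It holds a CCAAT box and a CRE core and no match to the ISRE, IRF core, GAS or NF-kB letters. No match was found in the Psmb10 window, Tapbp held CCAAT boxes alone, and Psmb8 held 1 GAS match. In the RefSeq gene table Psmb9, Tap1, Psmb8 and Tap2 are direct neighbours in that order, with the class II gene H2-DMb1 before them.

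The hairpin lowered its target. Ggct, which encodes gamma-glutamylcyclotransferase, had log2 signals of 3.32, 3.72 and 3.70 in control replicates 1 to 3 and of 0.22, 0.91 and 0.70 in knockdown replicates 1 to 3, all relative to the 75th percentile of the same array. This scale is used for every level below, and it allows no comparison of levels between different probes. Ggct fell to 12.7% of control (log2 fold change -2.97 ± 0.21, SE; limma adjusted p = 0.0147). With the date pairs as a replicate block its adjusted p was 0.0742. On each array 54.5% to 56.8% of probes were well above background and 0 spots were saturated, and the number of arrays limits the precision. Knockdown replicate 1 stood apart, with a first principal component score of 80.9 where the remaining knockdown arrays scored 3.16 and 6.95. Control replicates 1 to 3 scored -43.1, -45.5 and -2.45. Control replicate 3 thus lay nearer to the remaining knockdown arrays than to the other controls on this component, which held 49.7% of the variance. In RNA from whole cultures, fewer cells of a type and less RNA per cell cannot be told apart.

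Not every member could be measured. Of the 14 probes, 9 lay well above background throughout the 6 arrays, and they stand for 7 genes. The Psmb9 probe was above background on the 3 knockdown arrays alone, 1 Tap1 probe on 1 knockdown array, and the other Tap1 probe, 1 Tap2 probe and the Psmb8 probe on no array. The 10 probes above background on at least 3 arrays were tested, for 8 genes, and Tap1 and Psmb8 were not. Psmb9 entered the test only through the knockdown, so it had to differ, and counts are therefore also given for the 9 probes above background on every array.

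Of the class I and immunoproteasome genes that could be measured, some passed the test, and all of these were higher in the knockdown. H2-M3, Tap2 and Psmb10 rose, 3 of the 10 tested probes, at an adjusted p below 0.05 in limma over all 31804 probes, 0 fell, and 7 did not pass. Over all tested probes 1.75% were called, 1.16% rose and 0.591% fell, and over the probes above background on all arrays 1.02% rose, against 3 of the 9 members. Log2 fold changes of the 9 probes above background on every array ran from 0.41 to 1.21, with a median of 0.75. The median over all tested probes was -0.007. In each of the 9 every knockdown array lay above every control array, which holds for 14.5% of probes above background on all arrays. All of these 9 probes also had an unadjusted limma p below 0.05 and were higher, as were 10.4% of all tested probes. Genes of the same pathway are not independent of each other. The members were also chosen with earlier results of these data known, so these counts are descriptions.

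**Figure D1:**
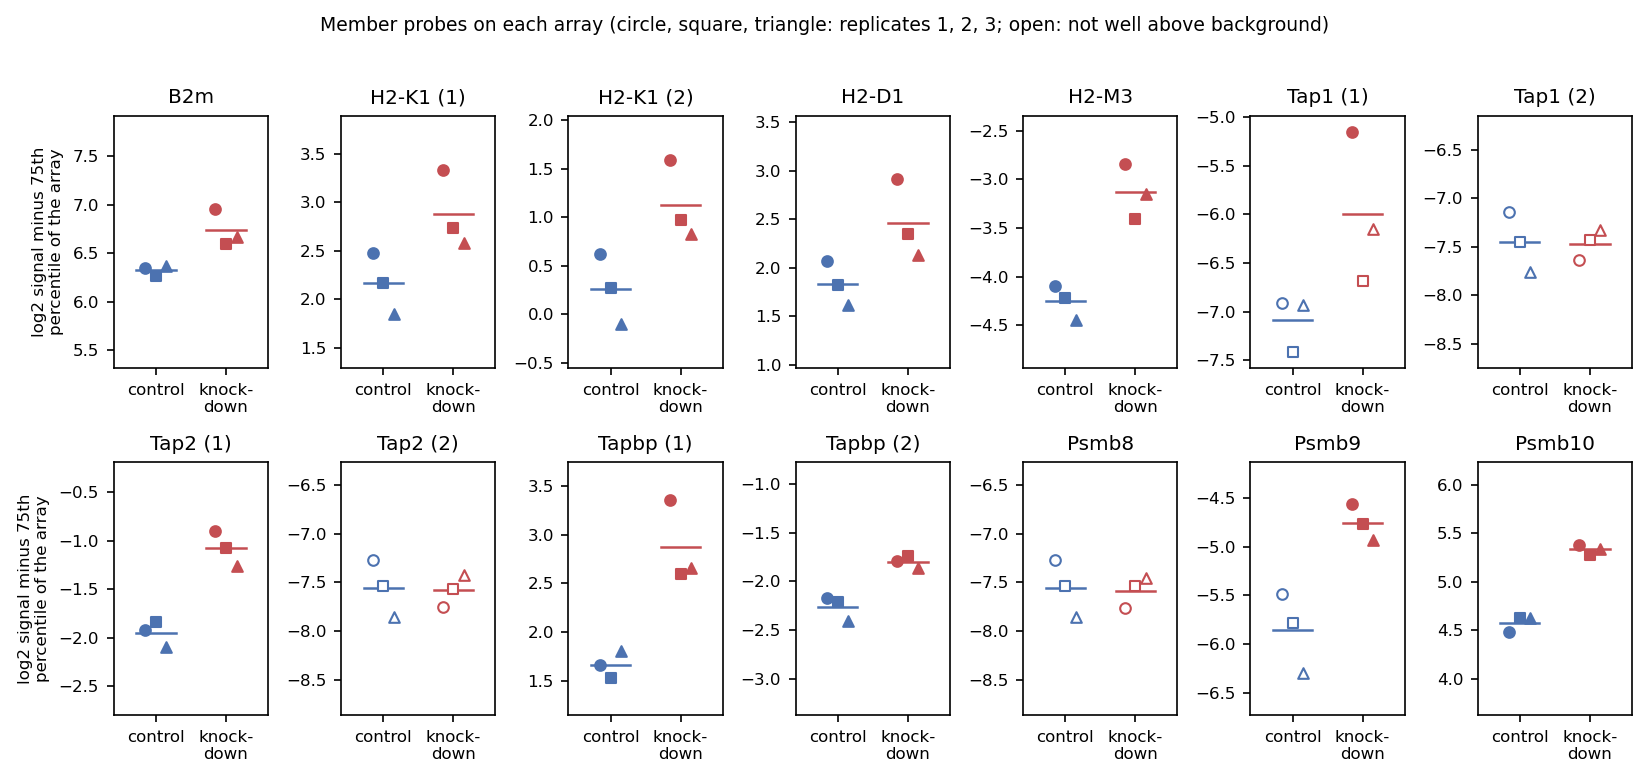
Signal of the 14 member probes on each array, as log2 signal minus the 75th percentile of the array (y axis, the same span of log2 units in every panel), in control (blue) and knockdown (red), with the group mean as a bar and a number in brackets for genes with 2 probes. Filled knockdown points lie above filled control points for the 9 probes above background on every array. The control points of Psmb9 are open, and the panels of Tap1 (2), Tap2 (2) and Psmb8 hold open points alone.

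The calls were not stable across fits. With the 3 date pairs as a replicate block 0 of the 10 passed in limma. That fit called 0 of all 31804 probes (5572 at an unadjusted p below 0.05). For the 9 probes above background on all arrays its adjusted p-values ran from 0.113 to 0.248, with every unadjusted p below 0.05. With any single array left out, 0 of the 10 passed either, and the lowest adjusted p among them ran from 0.053 without knockdown replicate 1 to 0.154 without control replicate 2. When 1 probe per named gene was fitted and p-values were adjusted over 14151 genes instead, Tapbp passed beside the same 3, so that 4 of the 7 member genes above background on all arrays rose, where 7.41% of genes were called, 4.57% rising and 2.84% falling. The same 4 rose in that gene fit with the replicate block, where 3.94% of genes were called and 2.78% rose.

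Among the heavy chains, H2-M3, a class I molecule that presents formylated peptides, rose. Its log2 signals were -4.10, -4.22 and -4.45 in the controls and -2.84, -3.41 and -3.15 in the knockdown arrays. The groups were 0.69 log2 units apart at their nearest points. This made 2.18-fold, a log2 difference of 1.12 ± 0.18 (SE; limma adjusted p = 0.0434), with pair differences of 1.26, 0.81 and 1.3. The probe was dim, and with normexp background correction its log2 fold change was 0.50 and did not pass (adjusted p = 0.121).

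The classical heavy chain genes H2-K1 and H2-D1, which present most peptides to cytotoxic T cells, did not pass. The brighter H2-K1 probe had log2 signals of 2.48, 2.17 and 1.85 in the controls and 3.33, 2.73 and 2.58 in the knockdown, which made a log2 fold change of 0.71 with a 95% interval from 0.12 to 1.3 (limma adjusted p = 0.188). The dimmer H2-K1 probe read 0.62, 0.27 and -0.10 against 1.59, 0.97 and 0.83, a log2 fold change of 0.86 with a 95% interval from 0.24 to 1.48 (limma adjusted p = 0.142). H2-D1 had log2 signals of 2.07, 1.82 and 1.62 in the controls and 2.91, 2.35 and 2.13 in the knockdown, which made a log2 fold change of 0.63 with a 95% interval from 0.08 to 1.17 (limma adjusted p = 0.205).

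The groups did not overlap for these 3 probes, but the nearest arrays were close, 0.10 log2 units apart for the brighter H2-K1 probe and 0.06 for H2-D1. Within both groups replicate 1 was the highest and replicate 3 the lowest on all 3 probes, so the pair differences varied less than the levels. They were 0.85, 0.55 and 0.73 for the brighter H2-K1 probe and 0.84, 0.53 and 0.51 for H2-D1. With the replicate block the standard error of that H2-K1 probe was 0.14 in place of 0.25, and its adjusted p was 0.131 in the probe fit and 0.0511 in the gene fit. Probes of heavy chain genes can bind transcripts of related H2 genes, so the 3 probes may share part of their signal.

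B2m, the light chain of every classical class I molecule, had the smallest difference of the members tested and did not pass. Its log2 signals were 6.35, 6.27 and 6.37 in the controls and 6.96, 6.59 and 6.67 in the knockdown. The log2 fold change was 0.41 with a 95% interval from 0.08 to 0.75 (limma adjusted p = 0.182), and the pairs differed by 0.61, 0.32 and 0.30. All 3 knockdown arrays were above the controls, by 0.23 log2 units at the nearest.

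Of the loading genes, Tap2 rose on the probe that could be measured. That probe read -1.92, -1.84 and -2.09 in the controls and -0.90, -1.08 and -1.26 in the knockdown, 1.83-fold higher, a log2 difference of 0.87 ± 0.15 (SE; limma adjusted p = 0.047). All 3 knockdown arrays lay at least 0.57 log2 units above the controls, and the pairs differed by 1.03, 0.76 and 0.83. Tap2 missed the threshold under normexp (0.63; adjusted p = 0.0756) and under quantile normalization (0.87; adjusted p = 0.0521). The second Tap2 probe was not well above background on any array, although both are assigned to the same transcript.

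Tap1, the partner of Tap2 in the transporter, gave no measured difference. On 1 probe its log2 signals were -6.91, -7.42 and -6.93 in the controls, none well above background, and -5.15, -6.69 and -6.15 in the knockdown, where replicate 1 alone was well above background. The other Tap1 probe ranged from -7.76 to -7.14 over the 6 arrays and was above background on none. No fold is given for either.

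Tapbp differed between its probes, which are assigned to different RefSeq transcripts. The brighter probe, for NM_001025313, read 1.66, 1.53 and 1.80 in the controls and 3.36, 2.60 and 2.66 in the knockdown, which made a log2 fold change of 1.21 with a 95% interval from 0.68 to 1.74 (limma adjusted p = 0.0518). The groups were 0.80 log2 units apart, the widest gap of any member, and the pairs differed by 1.70, 1.07 and 0.86. The second probe, for NM_009318, read -2.17, -2.21 and -2.41 against -1.79, -1.74 and -1.86, a log2 fold change of 0.47 with a 95% interval from 0.17 to 0.77 (limma adjusted p = 0.115). The brighter probe passed in the gene fit (adjusted p = 0.0215) and with normexp (0.0379). With normexp the second probe was at 0.25 and did not pass (limma adjusted p = 0.405).

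The distance between the 2 Tapbp probes was 3.84, 3.74 and 4.21 log2 units in the controls and 5.15, 4.34 and 4.52 in the knockdown. It was larger in all 3 knockdown arrays, by 0.74 on average (two-sided exact permutation p = 0.1, the smallest that 3 arrays against 3 allow). The 2 H2-K1 probes, both assigned to NM_001001892, differed by 0.15 in their log2 fold changes, with the dimmer one higher. Their distance was 1.86, 1.90 and 1.95 in the controls and 1.74, 1.76 and 1.75 in the knockdown, so it separated the groups too (two-sided exact permutation p = 0.1, again the smallest possible).

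**Figure D2:**
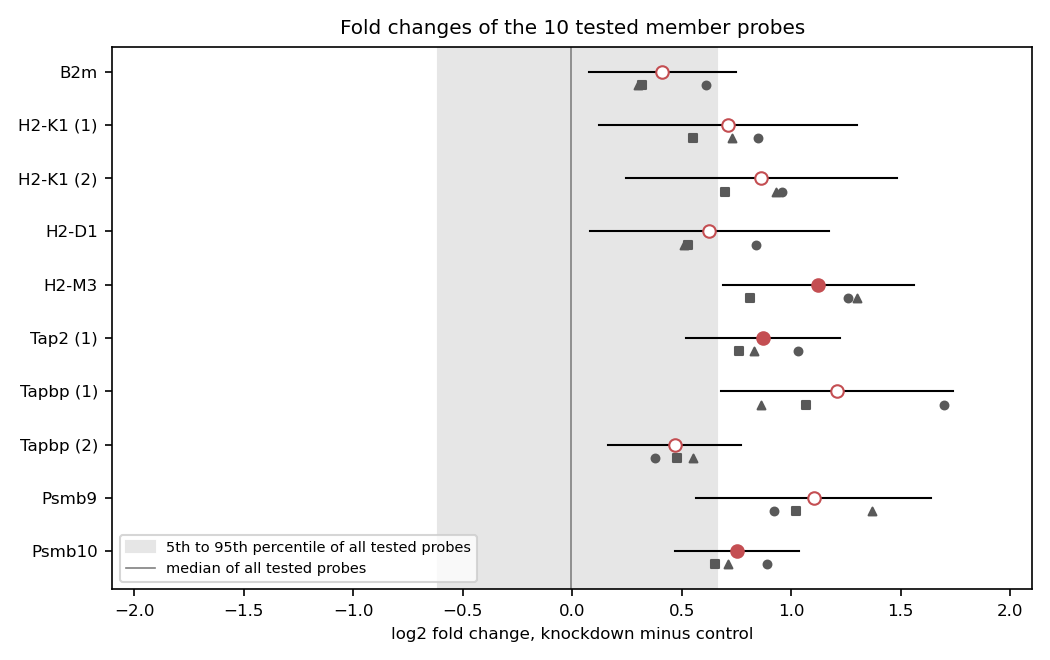
Log2 fold change (x axis, knockdown minus control) of the 10 tested member probes with its 95% limma interval, filled where the adjusted p was below 0.05, and with the 3 pair differences as small grey symbols (circle, square, triangle: pairs 1, 2, 3). The grey band spans the 5th to 95th percentile of all tested probes, -0.61 to 0.66. Psmb9 passed the filter through the knockdown arrays alone, and every pair difference of the 9 other probes lies above 0.

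Psmb10, the immunosubunit also called MECL-1, rose. Its log2 signals were 4.48, 4.63 and 4.63 in the controls and 5.38, 5.28 and 5.34 in the knockdown, so that each group was tight and the nearest arrays were 0.65 apart. This made 1.69-fold, a log2 difference of 0.75 ± 0.12 (SE; limma adjusted p = 0.0422), and the pairs differed by 0.89, 0.65 and 0.71. Psmb10 was the only one of the 3 called members that also passed with both normexp (adjusted p = 0.0273) and quantile normalization (0.0453).

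Psmb9, the immunosubunit LMP2, was above background in the knockdown alone. Its log2 signals were -5.48, -5.78 and -6.30 in the controls and -4.56, -4.76 and -4.93 in the knockdown. Against the lowest signal that counts as well above background it was at least 1.49-fold higher. It is counted among the 10 tested probes, but its test is not read, since the knockdown arrays alone brought it past the filter. With normexp its log2 fold change was 0.13. Psmb8, the third immunosubunit, was not well above background on any array, with log2 signals from -7.86 to -7.27 in the controls and -7.76 to -7.46 in the knockdown.

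The constitutive subunits that the immunosubunits replace showed smaller differences, and none passed. The log2 fold change of Psmb5 was 0.12 (95% interval -0.18 to 0.42), that of Psmb6 0.08 (-0.28 to 0.44) and that of Psmb7 0.11 (-0.22 to 0.45). Psmb10 moved by 0.64 log2 units more than its counterpart Psmb7, with pair values of 0.68, 0.49 and 0.75 (two-sided exact permutation p = 0.1, the smallest that 3 arrays against 3 allow). Over the 14 tested genes of the constitutive 20S core, 0 passed in limma over all probes or in the gene fit and 0 had an unadjusted p below 0.05. Their log2 fold changes ran from -0.06 to 0.24, with a median of 0.10 beside 0.016 over all 14151 genes. Of 30 tested genes of the 19S cap, activators and assembly factors, 0 passed in either fit, 1 had an unadjusted limma p below 0.05, and their values ran from -0.41 to 0.29.

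**Figure D3:**
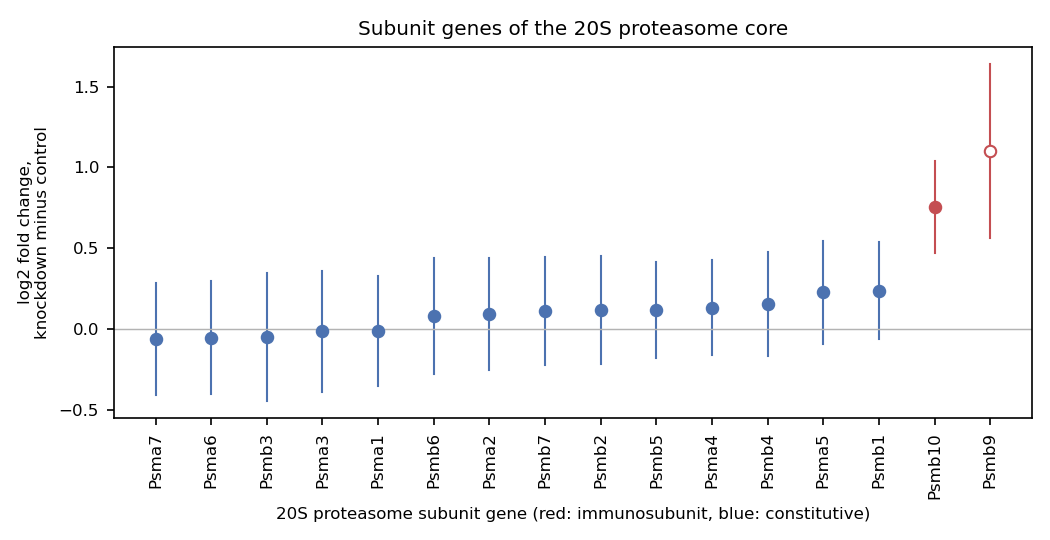
Log2 fold change (y axis, knockdown minus control) with 95% limma interval for the tested subunit genes of the 20S proteasome core, immunosubunits in red and the 14 constitutive subunits in blue, ordered by value. Psmb10 at 0.75 lies above the constitutive subunits, which end at 0.24, and the open Psmb9 point is not a measured difference, since its control arrays were not well above background.

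Other genes of the pathway were read through 1 probe each, the one with the highest mean, with the adjusted p over all probes, where 2.31% of genes were called, 1.58% rising and 0.728% falling. Of 15 tested class I and class I-like heavy chain genes outside the members, 1 rose, 0 fell and 14 did not pass, with a median log2 fold change of 0.66, and in the gene fit 5 rose. Of the 15, 12 had a log2 fold change above 0. An unadjusted limma p below 0.05, in either direction, was found for 10 of them and for 19.1% of all tested probes. The one past the threshold was Fcgrt, the neonatal Fc receptor that pairs with B2m, with log2 signals of -0.10, -0.41 and -0.40 in the controls and 1.2, 0.98 and 1.09 in the knockdown. It was 2.63-fold higher, a log2 difference of 1.4 ± 0.14 (SE; limma adjusted p = 0.027). H2-T22, H2-T10, Cd1d1, which presents lipids, and Hfe, which acts in iron sensing, were added in the gene fit, with log2 fold changes of 0.82, 0.66, 0.71 and 0.82. With the replicate block in that fit H2-T22, H2-T10 and Cd1d1 no longer passed (limma adjusted p = 0.0796, 0.0742 and 0.0713), and H2-Q2, H2-T23 and H2-Q8 passed instead (0.0366, 0.0404 and 0.0488). Pair differences were 0.89, 0.72 and 0.95 for H2-Q2 and 0.91, 0.63 and 0.97 for H2-T23. Those of the dimmer H2-K1 probe were 0.96, 0.70 and 0.93. Probes of these genes too can bind related H2 transcripts, so they may share signal with the H2-K1 and H2-D1 probes. H2-Q2 read 0.66, 0.33 and -0.17 in the controls and 1.55, 1.05 and 0.79 in the knockdown. H2-T23 read 0.62, 0.32 and -0.13 against 1.52, 0.95 and 0.85, and the dimmer H2-K1 probe 0.62, 0.27 and -0.10 against 1.59, 0.97 and 0.83. Whether these nearly alike values are separate measurements was not tested, so the counts over the 15 genes may hold 1 signal more than once. The direction was not shared by the whole family, since H2-Q4 had a log2 fold change of -0.46 (limma adjusted p = 0.249).

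Of 16 tested genes of class I assembly, chaperoning and peptide trimming, 0 passed in limma over all probes and 3 had an unadjusted p below 0.05, as had 19.1% of all tested probes, with a median of 0.10. In the gene fit Tapbpl, a tapasin relative that edits the bound peptide, passed (log2 fold change 0.90; adjusted p = 0.0237), but not with the replicate block added (0.0576). Erap1, which trims peptides in the endoplasmic reticulum, had pair differences of 2.03, 0.80 and 0.39 and an adjusted p of 0.145 over all probes. The chaperone genes Calr, Canx and Pdia3 had log2 fold changes of 0.08, -0.07 and 0.12.

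Among 19 tested regulators of class I transcription, 1 rose, 0 fell and 18 did not pass, with a median of -0.02. Of the 19, 5 had an unadjusted limma p below 0.05 in either direction, as had 19.1% of all tested probes. Irf1, an interferon-induced activator of class I and immunoproteasome genes, read 3.38, 3.51 and 3.62 in the controls and 4.52, 4.17 and 4.45 in the knockdown, 1.83-fold higher, a log2 difference of 0.87 ± 0.15 (SE; limma adjusted p = 0.0464). Irf7 passed in the gene fit (log2 fold change 1.04; adjusted p = 0.0244). Nlrc5, the coactivator of class I genes, had a log2 fold change of 0.50 with a 95% interval from -0.15 to 1.15 (limma adjusted p = 0.39), and its pairs differed by 0.41, 0.56 and 0.53. Of 18 interferon genes with a probe, 11, among them Ifnb1 and Ifng, were not well above background on any array, and 0 of the 7 tested passed in limma in either fit (1 at an unadjusted p below 0.05).

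Of 12 class II genes, 9 were not well above background on any array, among them H2-Aa, H2-Ab1, H2-Eb1 and the transactivator gene Ciita. The 2 tested were H2-DMb1 and H2-DMa, which load peptides on class II molecules. H2-DMb1 was above background on 2 of 3 control arrays and all 3 knockdown arrays and rose (log2 fold change 0.97 ± 0.15, SE; limma adjusted p = 0.0397), but with normexp it was at 0.18 and with quantile normalization at 0.96, and passed with neither (adjusted p = 0.633 and 0.0595). H2-DMa had a log2 fold change of 1.04 and an adjusted p of 0.0578, or 0.0249 in the gene fit.

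**Figure D4:**
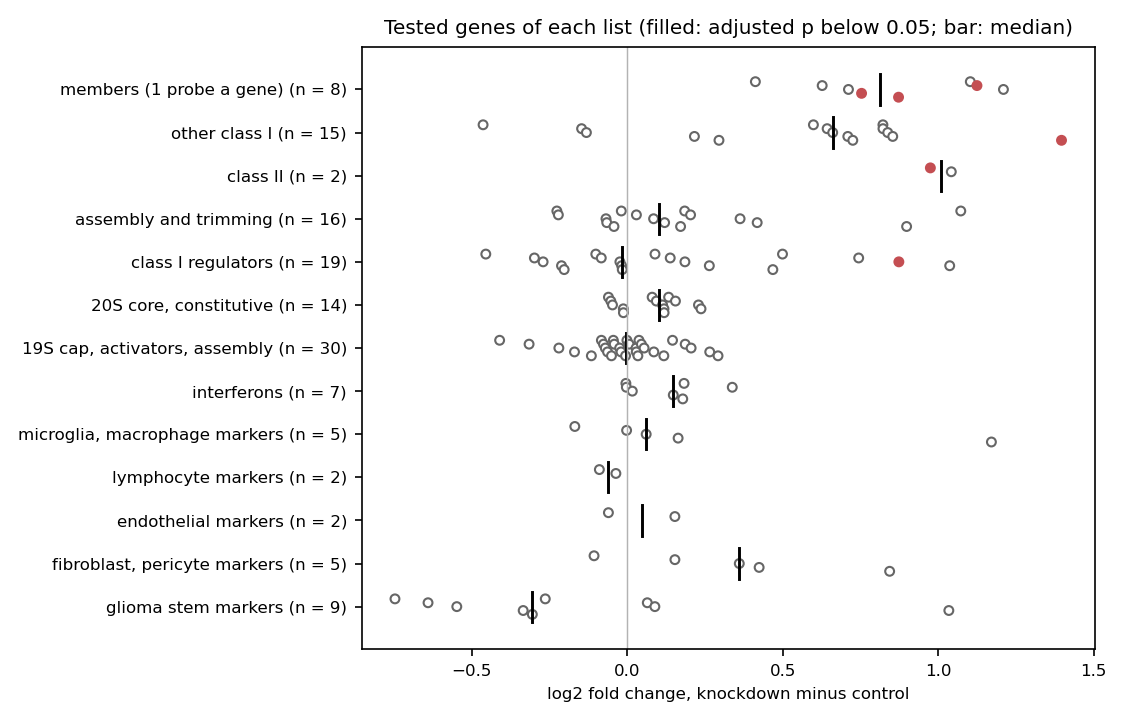
Log2 fold change (x axis, knockdown minus control) of each tested gene by list, 1 probe per gene, filled where the adjusted p was below 0.05, with the median of the list as a black bar. The 7 members above background on all arrays lie between 0.41 and 1.21 and most other class I genes are also above 0. The constitutive 20S core has a median of 0.10.

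Markers of other cell types were at background in part. Of 13 microglia and macrophage markers, Csf1r, Itgam, Tmem119, Cd68 and C1qb were above background on all arrays and 7 on none, namely Ptprc, Aif1, Cx3cr1, P2ry12, Adgre1, Trem2 and C1qa, and 0 of the 5 tested passed in limma (1, Tmem119, at 1.17 with an adjusted p of 0.051, or 0.0207 in the gene fit). Their summed signal, in multiples of the 75th percentile of the array, was 12.3 to 18.6 in the controls and 13.3 to 15.7 in the knockdown, but Itgam alone made up 67.2% to 83.9% of that sum, so it says little about Tmem119 and the rest. The lymphocyte markers summed to 1.79 to 2.17 and 1.78 to 2.12, with Cd3g, Cd8a, Nkg7, Cd79a and Ms4a1 at background on all arrays, and the endothelial markers to 0.18 to 0.26 and 0.21 to 0.27. Fibroblast and pericyte markers summed to 92.6 to 107 and 96.4 to 125, with 0 of 5 tested genes called and Dcn at a log2 fold change of 0.84, which passed in the gene fit with the replicate block alone (limma adjusted p = 0.0375). These sums too are led by their brightest probes, Col3a1 and Acta2 here and Cd4 among the lymphocyte markers, so they say little about the rest. The part of these markers in the result was not tested. Of 10 glioma stem cell markers, 8, among them Nes, Sox2 and Vim, were above background on all arrays, while Olig2 was above background on none. None of the 9 tested passed in limma in either fit (3 at an unadjusted p below 0.05), and their median log2 fold change was -0.31. Those 3 were Nes at -0.64 and Sox2 at -0.34, lower in all 3 pairs, and Prom1 at 1.03, higher in all 3, and their part in the result was not tested.

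Without knockdown replicate 1, the array that stood apart, the 9 member probes above background on all arrays were still higher in the knockdown, with log2 fold changes from 0.30 to 0.98 and a median of 0.63 against 0.75 with it. The 9 tested genes outside the members whose windows hold the CRE core and CCAAT box at the same spacing had a median of -0.15, and 0 of them passed in limma in either fit (2 at an unadjusted p below 0.05, Nfe2l1 at -0.40 and Trim26 at -0.47, both lower in the knockdown). These genes were found by letters and spacing alone, and the part of that arrangement in the values was not tested. Over the 6 arrays, the genes whose values most resembled the mean standardised profile of the 8 tested members were Id3, Spef1, Mbp, Tmsb15l and Gpnmb, each at a Pearson r of 0.996 to 0.998. Of 13075 named genes searched, 918 had an r above 0.9, and all these values share the same 6 arrays and the same difference between groups. Psmb9, which passed the filter through the knockdown arrays alone, is 1 of the 8 genes in that profile, so the resemblance is a description.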

How the data were processed

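Spot intensity values on a linear scale were produced by the authors with Agilent Feature Extraction 11.0.1.1, which had subtracted background, per the file headers. The 0 or 1 spot flags of that deposited scanner output were used as given. Outlier spots were left out, spots of a probe averaged as log2, and the 75th percentile of the array subtracted. 12 of 56605 non-control probes had no usable spot. The deposited log2 value table differed from log2 of the signal by 1 constant per array (tolerance 0.01). All arrays shared 1 slide and 1 scan time. Accessions were matched to RefSeq symbols (GRCm38), naming 58.3% of probes, and a probe whose accession matched several genes was left without a name. The match is by accession, so it does not show which transcripts a probe binds. The array design is of another build, so gene coordinates are not given.

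A probe entered the test when well above background on 3 or more of 6 arrays (31804 probes), and was compared by limma 3.58.1 in R 4.3.3 without a block, two-sided, with Benjamini-Hochberg adjustment over these probes. The fit was tested on simulated data (31804 probes, 200 changed), where it recovered 0.5%, 26.2% and 74% of changes of 1.5, 2 and 4-fold. The simulated noise was independent between probes and arrays, without date pairs or an array that stood apart, so these rates need not hold for the real arrays. That the labels do not name separate cultures leaves p-values as a measure of spread among the arrays alone, which may be technical. The shared dates pair the arrays, and deviations from group means correlated at -0.17, 0.60 and -0.34 in pairs 1 to 3. Members and lists were chosen with earlier results of these data known. The rule named all member probes, Ggct, up to 4 called genes per list, Psmb5, Psmb6, Psmb7, Nlrc5, Irf1 and the 5 genes most alike (1 further gene of the rule is not reported here), and other genes named were chosen after their values were seen. Alternatives were the block, normexp (offset 50, on median signals), quantile normalization, another percentile, both filters, the deposited table, 1 probe per gene and leaving out arrays.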

Additional observations from a re-analysis of the deposited data

How the results depend on the processing

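The direction of the 9 member probes above background on all arrays was the same under every alternative that could test them, and the calls were not. Against 3 members, 3 genes of the other lists and 556 probes called in all, the replicate block called 0, 0 and 0, and keeping dim probes called 0, 1 and 58. With 1 probe per gene 4 of the 7 members above background on all arrays, 11 list genes and 1048 genes were called. With the replicate block added, an alternative chosen after seeing the data, 4, 11 and 558 were called. Of the 11 list genes 7 were called in both, H2-T22, H2-T10, Cd1d1 and Tapbpl were lost with the block and H2-Q2, H2-T23, H2-Q8 and Dcn gained. Psmb9, which the knockdown alone brought past the filter, is left out of the 4. Taking the 75th percentile from the probes detected on every array called 5 list genes, and testing those probes alone called 7. Leaving out 1 array at a time called 0 members each time, 0 to 1 list genes and 0 to 192 probes. An unadjusted limma p below 0.05 was kept by 7 to 10 of the 10 member probes, a count that includes Psmb9. The cause of these differences was not tested. Psmb6, at 0.08 and not called, ran from -0.01 without control replicate 3 to 0.20 without control replicate 2. Signal over background limits the dim probes: with normexp H2-M3 was at 0.50, the second Tapbp probe at 0.25, Psmb9 at 0.13 and H2-DMb1 at 0.18.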
